A study of Mus musculus with 4 samples.

Results

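The 10 chemokine genes described here are Ccl2, Ccl5, Ccl7, Ccl20, Cxcl9, Cxcl10, Cxcl11, Cxcl12, Cxcl16 and Cx3cl1. They were taken by gene symbol from the 38713 genes of the deposited expression table, and all 10 had a row. They are CC chemokines, CXC chemokines without the ELR motif and the CX3C chemokine, that is, genes for secreted or membrane-bound proteins known for attracting monocytes and lymphocytes. They were chosen by family, with their FPKM in these 4 libraries and the JNK_KO against JNK_WT differences already known, so these values are given as a description and carry no p-value.

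RNA sequencing was performed on 4 mouse mammary tumor cell lines of strain C57BL/6, each grown from a separate tumor and sequenced as 1 library. The JNK_WT lines (n = 2, replicates 1 and 2) are labelled p53-/-, and the JNK_KO lines (n = 2, replicates 1 and 3) are labelled p53-/- JNK-/-. All lines came from parous female mice that carried Wap-Cre and floxed Trp53, and the JNK_KO mice carried floxed Mapk8 (encoding JNK1) and floxed Mapk9 (encoding JNK2) as well. The Wap promoter drives Cre in mammary epithelium upon lactation, mainly in luminal cells. The tumor cells were dispersed with collagenase, plated on collagen and passaged in serum before RNA was isolated, and the age of each mouse at harvest was not given in the sources used here. Normal mammary cells were not analysed here, so every value compares tumor lines with each other.

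Levels are FPKM, fragments per kilobase of exon scaled to the number of mapped fragments, a scale on which genes of different length can be compared. Low values moved in steps of 1 read, estimated at 0.0139 to 0.0198 FPKM for a transcript of 1 kb, with the smallest step, and so the greatest depth, in JNK_KO replicate 3 and the largest in JNK_KO replicate 1. Read numbers given beside low levels were estimated from these steps. Levels follow the order JNK_WT replicate 1, JNK_WT replicate 2, JNK_KO replicate 1, JNK_KO replicate 3. Mapk8 was at 23.9 and 19.1 FPKM in the JNK_WT lines and at 4.30 and 4.27 FPKM in the JNK_KO lines, and Mapk9 was at 29.7 and 24.3 FPKM against 12.6 and 8.66 FPKM, so both JNK genes were lower in the libraries labelled JNK_KO. Trp53, targeted in all 4 lines, was at 1.55 and 4.15 FPKM in JNK_WT lines and at 5.72 and 4.28 FPKM in JNK_KO lines, and with no line that kept the gene these levels do not check its deletion. The epithelial label was checked with 10 markers, whose summed level was 3891 to 4990 FPKM in JNK_WT lines and 1804 to 3475 FPKM in JNK_KO lines. Most of each sum came from Krt18, Krt8 and Krt7. By single marker, 6 of the 10 had overlapping groups, 3 were lower in both JNK_KO lines and 1, Elf3, was higher in both. Over all genes tested below, 16.7% were lower and 18.3% higher in this way. The unadjusted limma p-value was under 0.05 for 0 of the 10. In these bulk libraries, fewer cells of a type and less RNA per cell cannot be told apart.

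Chemokines are small proteins that bind G protein-coupled receptors on leukocytes and guide their movement along a gradient. CCL2 and CCL7 act on CCR2 of monocytes, CCL5 attracts T cells and macrophages, and CCL20 acts on CCR6. CXCL9, CXCL10 and CXCL11 are ligands of CXCR3 on activated T cells and are classic products of interferon signaling, while CXCL12 binds CXCR4 and the scavenging receptor ACKR3. CXCL16 and CX3CL1 are made as membrane proteins that can be shed by the proteases ADAM10 and ADAM17, and they bind CXCR6 and CX3CR1.

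In 7 of the 10 genes (Ccl2, Ccl7, Ccl5, Cxcl9, Cxcl10, Cxcl11 and Cx3cl1) both JNK_KO lines lay above both JNK_WT lines, and in the other 3 (Ccl20, Cxcl12 and Cxcl16) the groups overlapped. In 0 of the 10 did both JNK_KO lines lie below both JNK_WT lines. Among all 12998 genes that passed the filter of at least 1 FPKM in at least 2 libraries, 18.3% had groups that did not overlap with JNK_KO higher and 16.7% with JNK_KO lower. The difference between group means of log2(FPKM + 1), JNK_KO minus JNK_WT, was over 0.75 for 8 of the 10 genes, beside 9.25% of all tested genes, and it was as far below 0 for 0 of them, beside 6.43%. The gap between the groups on that scale was wider than the range within either group for 4 of the 10 genes (Ccl2, Ccl7, Cxcl9 and Cxcl10), beside 6.21% of all tested genes with JNK_KO higher and 5.15% with JNK_KO lower. Of the 8 genes that passed the filter themselves, 5 had groups that did not overlap, 6 had a difference over 0.75 and 3 had such a gap. The median difference of the 10 genes was 1.42, and that of all tested genes was 0.01. Cxcl9 and Cxcl11 did not pass the filter, since each reached 1 FPKM in a single JNK_KO line, and Ccl7 passed it through the JNK_KO lines alone.

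**Figure D1:**
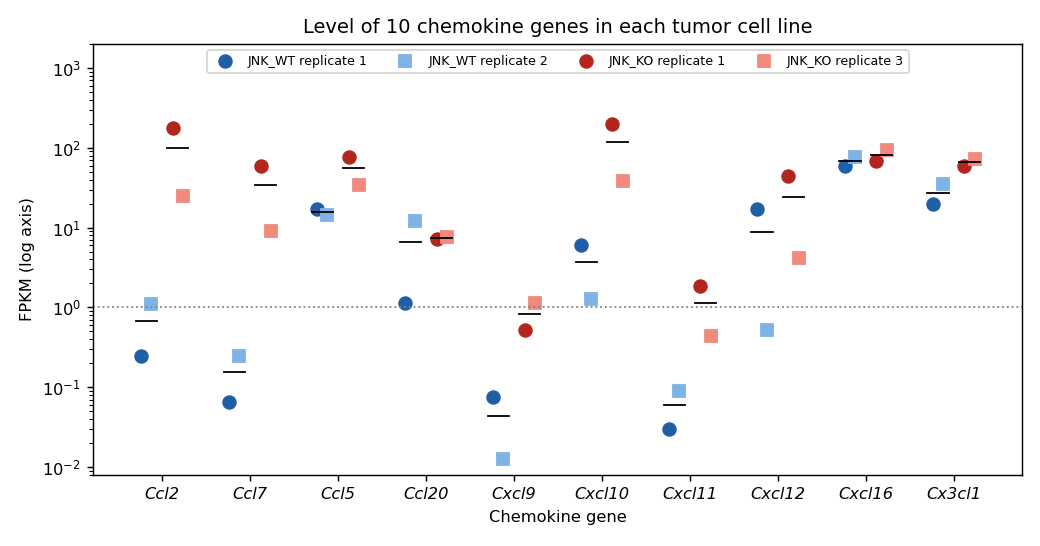
FPKM on a log axis of each chemokine gene in the 4 tumor cell lines, where each point is 1 library, each short black line is a group mean and the dotted line marks 1 FPKM. The JNK_KO points of Ccl2, Ccl7 and Cxcl10 lie far above the JNK_WT points, while those of Ccl20, Cxcl12 and Cxcl16 are mixed with them.

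Across the whole table, limma called 0 of 12998 genes (0%) at an adjusted p-value under 0.05 with an absolute log2 difference over 0.75. The smallest limma adjusted p-value was 0.0515, and the unadjusted p-value was under 0.05 for 992 genes, of which 617 (4.75% of those tested) were higher and 375 (2.89%) lower in JNK_KO cells. With 2 lines against 2, an exact permutation test of a single gene cannot give a p-value under 0.333. The lines are separate cultures, but 2 per genotype leave the spread between lines poorly known.

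The monocyte attractants Ccl2 and Ccl7 were low in both JNK_WT lines and higher in both JNK_KO lines. Ccl2 (mm10 chromosome 11, 82035571 to 82037453, plus strand) had levels of 0.249 and 1.12 FPKM in the JNK_WT lines and of 177 and 24.8 FPKM in the JNK_KO lines. The lower JNK_KO line was thus 22.3 times the higher JNK_WT line, although the JNK_KO lines differed from each other by 7.12 times. The group means were 0.683 ± 0.613 FPKM and 101 ± 108 FPKM (SD, n = 2 each), and the log2 difference was 5.38 (SE 1.0). Each SE given here is from limma, which draws the spread of a gene toward that of other genes of like level. Such an SE can be smaller or larger than the lines of that gene alone would give. Among the genes tested, Ccl2 stood at percentiles 3.02 and 7.82 in the JNK_WT libraries and at percentiles 96.2 and 66.6 in the JNK_KO libraries.

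Ccl7 (chromosome 11, 82045712 to 82047525, plus strand) starts 10.1 kb downstream of the Ccl2 start and encodes another CCR2 ligand. It was at 0.0650 and 0.246 FPKM in JNK_WT lines, which corresponds to about 2.05 and 9.61 reads, and at 59.4 and 8.95 FPKM in JNK_KO lines, or about 1802 and 388 reads. These levels were at percentiles 1.97 and 2.88 of the genes tested in the JNK_WT libraries and at percentiles 86.4 and 38.2 in the JNK_KO libraries. The log2 difference was 4.41 (SE 0.92), a value that depends on the pseudocount since the JNK_WT levels were close to the limit of detection. Ccl2 exceeded Ccl7 in every library, by 3.83 and 4.54 times in the JNK_WT lines and by 2.98 and 2.78 times in the JNK_KO lines. Both genes therefore followed the same order of lines, with JNK_KO replicate 1 highest and JNK_WT replicate 1 lowest.

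The other annotated genes examined within 200 kb of Ccl2 and Ccl7 were not expressed to a comparable degree. Of these 7, 0 passed the filter, and their highest level in any library was 0.127 FPKM. These include Ccl8, Ccl11 and Ccl12, which encode CC chemokines related to the pair. Ccl12 was listed at 0 in all 4 libraries, while Ccl8 was at 0 in both JNK_WT lines and at 0.127 and 0.0450 FPKM in the JNK_KO lines. An opposite-strand gene that overlaps Ccl2, Gm17268, was listed at 0 throughout.

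Ccl5 (chromosome 11, 83525778 to 83530518, minus strand), a T cell and macrophage attractant, was readily detected in both genotypes. Its levels were 17.0 and 14.3 FPKM in JNK_WT lines and 77.7 and 34.4 FPKM in JNK_KO lines. The JNK_WT lines were close to each other at 15.6 ± 1.90 FPKM (SD, n = 2), while the JNK_KO lines differed by 2.26 times, and the ratio of the group means was 3.59. The log2 difference was 1.67 (SE 0.45), and the gap between the groups, 0.98 on the log2 scale, was narrower than the range of 1.15 between the JNK_KO lines.

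Ccl20 (chromosome 1, 83116766 to 83119167, plus strand), the ligand of CCR6, did not separate the genotypes. It was at 1.13 and 12.3 FPKM in JNK_WT lines and at 7.14 and 7.62 FPKM in JNK_KO lines, so that the JNK_WT lines bracketed the JNK_KO lines. The log2 difference of 0.66 (SE 0.93) became -0.66 when JNK_WT replicate 1 was left out and 1.97 when JNK_WT replicate 2 was left out.

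Among the CXCR3 ligands, Cxcl10 had the highest level in every library, and Cxcl9 and Cxcl11 stayed under 2 FPKM. Cxcl10 (chromosome 5, 92346638 to 92348889, minus strand) was at 6.14 and 1.26 FPKM in JNK_WT lines and at 201 and 38.3 FPKM in JNK_KO lines. The lower JNK_KO line was 6.23 times the higher JNK_WT line, and the lines of 1 genotype differed by 4.88 times in JNK_WT and 5.24 times in JNK_KO. The group means were 3.70 ± 3.45 FPKM and 119 ± 115 FPKM (SD, n = 2 each), with a log2 difference of 4.47 (SE 0.99).

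Cxcl9 (chromosome 5, 92321347 to 92328079, minus strand) was at 0.0755 and 0.0126 FPKM in JNK_WT lines and at 0.527 and 1.13 FPKM in JNK_KO lines. These levels correspond to about 11.2, 2.31, 74.9 and 229 reads in the same order of libraries. Cxcl9 was higher in JNK_KO replicate 3 than in replicate 1, the opposite of Cxcl10, so that Cxcl10 exceeded Cxcl9 by 380 times in JNK_KO replicate 1 and by 33.9 times in replicate 3. Cxcl11 (chromosome 5, 92359544 to 92365485, minus strand) was at 0.0303 and 0.0885 FPKM in JNK_WT lines and at 1.84 and 0.437 FPKM in JNK_KO lines, or about 5.72, 20.7, 333 and 113 reads. The reference annotation, which is of strain C57BL/6J, lists Cxcl11 as a polymorphic pseudogene, so these reads do not show that a protein was made. Cxcl10 and Cxcl11 both lie within the span of Art3 on the opposite strand (chromosome 5, 92331827 to 92414628), and without strand information reads of overlapping genes cannot be told apart. Art3 was at 0.269 and 0.0361 FPKM in JNK_WT lines and at 2.21 and 1.77 FPKM in JNK_KO lines.

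Promoter sequences are shown for CXCR3 ligands of unlike level and for Ccl20, whose groups overlapped. RefSeq promoters (GRCm38.p6) were found for 5 of the 10 genes (Ccl20, Cxcl9, Cxcl10, Cxcl12 and Cx3cl1), and the 250 bases before the start were searched on both strands for the interferon-stimulated response element (ISRE, searched as GAAA repeated after a spacer of 2 bases), the gamma-activated sequence (GAS, TTCNNNGAA), the AP1 site (TGANTCA) and the NF-kB consensus. Capitals mark the matches, and each sequence is written 5′ to 3′ on the strand of its gene.
Cxcl10 (chr5:92348890-92349139, minus strand): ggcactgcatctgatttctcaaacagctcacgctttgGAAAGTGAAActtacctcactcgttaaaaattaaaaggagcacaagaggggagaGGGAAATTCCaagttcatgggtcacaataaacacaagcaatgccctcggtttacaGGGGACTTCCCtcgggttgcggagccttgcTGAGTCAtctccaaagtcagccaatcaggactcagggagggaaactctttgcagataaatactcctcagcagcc
Cxcl9 (chr5:92328080-92328329, minus strand): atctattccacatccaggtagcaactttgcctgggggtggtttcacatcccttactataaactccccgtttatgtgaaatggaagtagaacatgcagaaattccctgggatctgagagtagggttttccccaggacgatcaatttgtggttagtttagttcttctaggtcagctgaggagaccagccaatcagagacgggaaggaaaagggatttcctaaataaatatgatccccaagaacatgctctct
Ccl20 (chr1:83116516-83116765, plus strand): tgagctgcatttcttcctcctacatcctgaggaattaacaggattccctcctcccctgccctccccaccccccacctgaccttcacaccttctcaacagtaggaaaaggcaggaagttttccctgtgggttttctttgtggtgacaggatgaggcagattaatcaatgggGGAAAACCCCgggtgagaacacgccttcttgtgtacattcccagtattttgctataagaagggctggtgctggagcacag
The Cxcl10 window held an ISRE match (GAAAGTGAAA) that began 213 bases before the start, NF-kB matches that began 159, 104 and 103 bases before it, of which the last pair overlap, and an AP1 match (TGAGTCA) 74 bases before it. The Ccl20 window held an NF-kB match 80 bases before the start, and the windows of Cxcl9, Cxcl12 and Cx3cl1 held no match to these patterns. The Cx3cl1 window (chromosome 8, 94771930 to 94772179) was set by its RefSeq start, and part of it lies past the gene start given below. Over 32851 RefSeq promoter windows of the same length, 2.98% held an ISRE match, 7.02% a GAS match, 7.25% an NF-kB match and 6.75% an AP1 match. A match to these letters is not evidence of binding, and a window without one says nothing about the factor.

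Genes around the CXCR3 ligands did not all share their pattern. Of 9 other annotated genes examined within 200 kb, 7 passed the filter. Of these 7, 3 (U90926, Art3 and Scarb2) had both JNK_KO lines above both JNK_WT lines, beside 18.3% of all tested genes. The other 4 had overlapping groups. Art3, whose span holds Cxcl10 and Cxcl11, passed the filter through the JNK_KO lines alone. Scarb2 had a log2 difference of 0.51. U90926 was at 19.2 and 4.96 FPKM in JNK_WT lines and at 128 and 30.1 FPKM in JNK_KO lines, with the same order of lines as Cxcl10 and a log2 difference of 2.53. In contrast, Sdad1 and Nup54 had log2 differences of -0.11 and -0.27 with overlapping groups.

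Cxcl12 (chromosome 6, 117168535 to 117181367, plus strand), which binds CXCR4 and ACKR3, varied more within each genotype than between genotypes. Its levels were 17.2 and 0.520 FPKM in the JNK_WT lines and 44.9 and 4.11 FPKM in the JNK_KO lines, so that replicate 1 was the higher line of each group. The JNK_WT lines differed by 33.1 times and the JNK_KO lines by 10.9 times, while the group means of 8.86 ± 11.8 FPKM and 24.5 ± 28.9 FPKM (SD, n = 2 each) differed by 2.77 times. The log2 difference was 1.54 (SE 1.62), and it became -0.25 without JNK_WT replicate 2 and -0.04 without JNK_KO replicate 1. The basal keratin gene Krt14 ran the other way across the lines, with 7.34 and 443 FPKM in the JNK_WT lines and 26.7 and 313 FPKM in the JNK_KO lines. Of all tested genes, 1.68% were higher by over 1 on the log2 scale in replicate 1 than in the other line of both genotypes, as Cxcl12 was. Krt14 and this last count were chosen after the values of Cxcl12 were seen, and replicate numbers do not pair lines across genotypes.

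The scavenging receptor gene Ackr3 followed the order of lines of Cxcl12. It was at 4.12 and 0.283 FPKM in JNK_WT lines and at 11.6 and 2.92 FPKM in JNK_KO lines, a difference of 1.46 on the log2 scale (SE 0.92, limma adjusted p-value 0.879). Cxcr4, the signaling receptor for CXCL12, did not pass the filter, at 0.0904 and 0.117 FPKM in JNK_WT lines and 0.480 and 1.64 FPKM in JNK_KO lines.

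**Figure D2:**
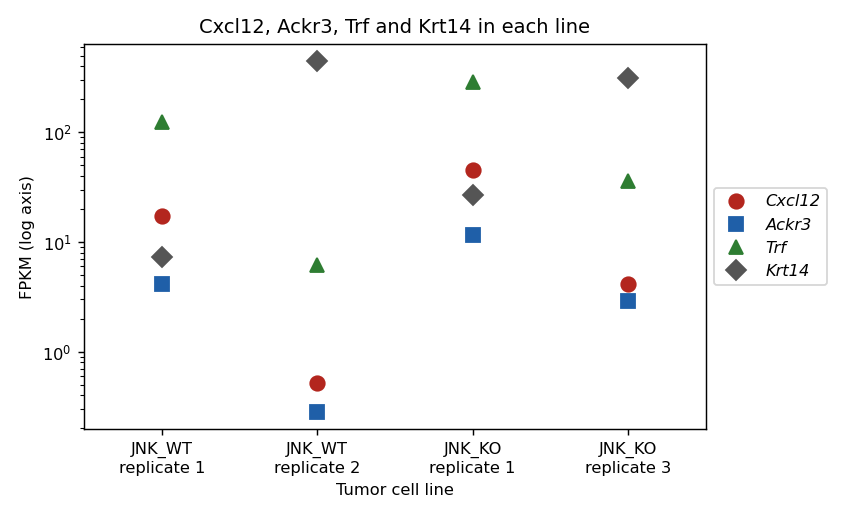
FPKM on a log axis of Cxcl12, of its scavenging receptor gene Ackr3, of Trf, the tested gene with the pattern closest to Cxcl12, and of Krt14 in each of the 4 tumor cell lines (1 point per library). Cxcl12, Ackr3 and Trf are higher in replicate 1 than in the other line of each genotype, and Krt14 is lower.

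The transmembrane chemokines Cxcl16 and Cx3cl1 were expressed in all lines. Cxcl16 (chromosome 11, 70453983 to 70459984, minus strand) was at 59.5 and 77.6 FPKM in JNK_WT lines and at 67.4 and 93.5 FPKM in JNK_KO lines. The groups overlapped, and the log2 difference was 0.22 (SE 0.29), smaller than the ranges of 0.38 and 0.47 within the JNK_WT and JNK_KO groups. Cx3cl1 (chromosome 8, 94772009 to 94782427, plus strand) had levels of 19.6 and 35.4 FPKM in JNK_WT lines and of 59.4 and 72.9 FPKM in JNK_KO lines. Its log2 difference was 1.29 (SE 0.36), and the gap between the groups was 0.73 on that scale, beside a range of 0.82 between the JNK_WT lines. Unlike the other genes whose groups did not overlap, apart from Cxcl9, Cx3cl1 was higher in JNK_KO replicate 3 than in replicate 1.

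The makeup of the 10 transcripts differed between lines. Their summed level was 121 and 143 FPKM in JNK_WT replicates 1 and 2 and 696 and 286 FPKM in JNK_KO replicates 1 and 3. Cxcl16 and Cx3cl1 together made up 65.4% and 79.1% of the sum in the JNK_WT lines and 58.2% in JNK_KO replicate 3. In JNK_KO replicate 1 the leading pair was Cxcl10 and Ccl2, with 54.2% of the sum. A level of at least 10 FPKM was reached by 4 of the 10 genes in each JNK_WT line, by 7 in JNK_KO replicate 1 and by 5 in JNK_KO replicate 3.

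**Figure D3:**
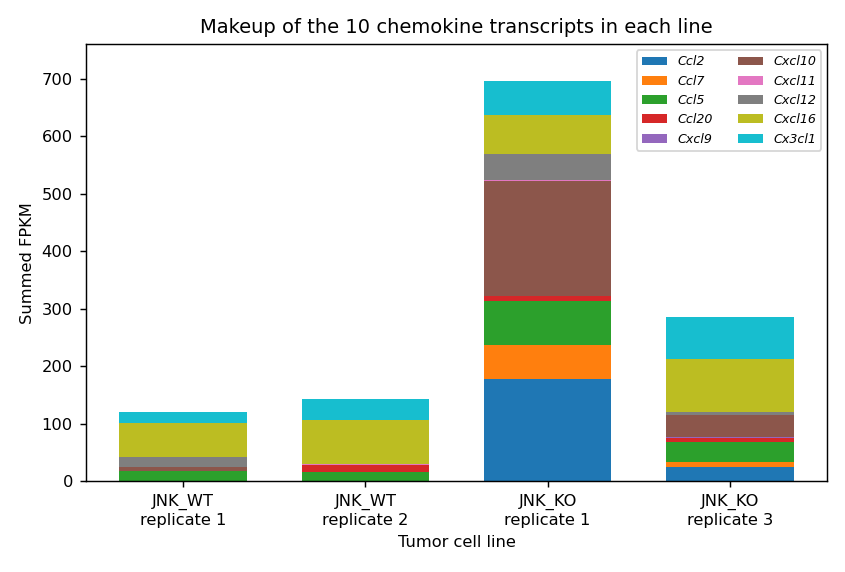
Summed FPKM of the 10 chemokine genes in each tumor cell line, with 1 bar per library divided by gene. The bars reach 121, 143, 696 and 286 FPKM, and the Cxcl10 and Ccl2 segments are largest in JNK_KO replicate 1, while Cxcl16 and Cx3cl1 lead in the other lines.

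Single lines moved the size of the differences and reversed 3 of the 10. Leaving out each library in turn gave log2 differences of 3.99 to 6.77 for Ccl2, 3.11 to 5.71 for Ccl7, 3.29 to 5.65 for Cxcl10, 1.09 to 2.25 for Ccl5 and 0.88 to 1.70 for Cx3cl1. The sign changed in at least 1 such fit for Ccl20, Cxcl12 and Cxcl16. Without JNK_KO replicate 1, which had the highest level of 6 of the 10 genes within its group, the median difference of the 10 genes was 1.06.

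**Figure D4:**
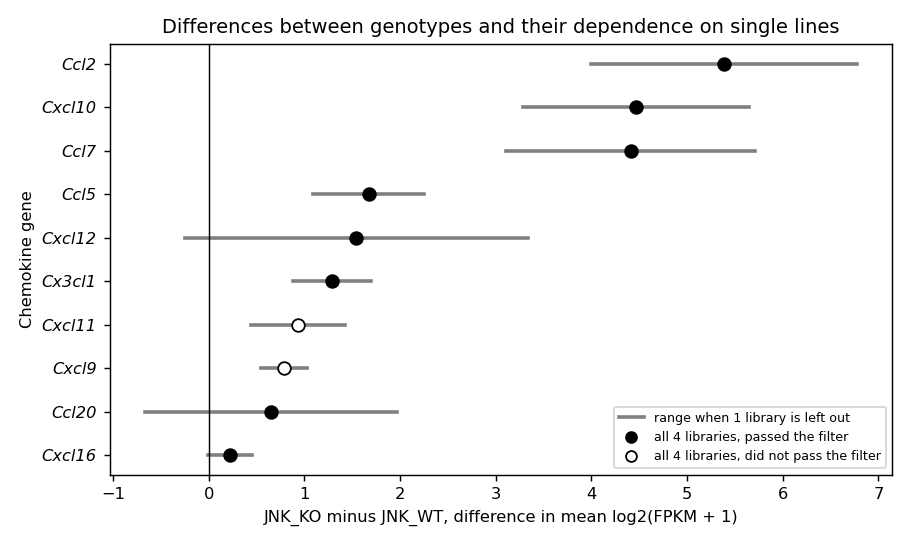
Difference in mean log2(FPKM + 1), JNK_KO minus JNK_WT, of each chemokine gene with all 4 libraries (points) and the range over the 4 fits that each left out 1 library (grey bars). The bars of Ccl20, Cxcl12 and Cxcl16 reach below 0, and open points mark the genes that did not pass the filter.

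Other chemokines without the ELR motif were mostly low. Of 21 such genes, 15 were under 1 FPKM in every library, 5 of which were listed at 0 throughout (Ccl1, Ccl12, Ccl21a, Ccl24 and Ccl26). The 4 that passed the filter were Ccl9, Cxcl14, Ccl25 and Ccl27a, and limma called 0 of them. The unadjusted limma p-value was under 0.05 for 2, each higher in JNK_KO cells, beside 4.75% of all tested genes. Cxcl14, one of these 2, passed the filter through the JNK_KO lines alone, which it could only do by being higher there. Ccl9, which encodes a CC chemokine that binds CCR1, was at 2.93 and 18.9 FPKM in JNK_WT lines and at 65.7 and 92.2 FPKM in JNK_KO lines, a difference of 3.16 on the log2 scale (SE 0.83, limma adjusted p-value 0.458). Cxcl14 was at 0.272 and 0.106 FPKM against 2.76 and 1.71 FPKM, a difference of 1.43 on the log2 scale (SE 0.34, limma adjusted p-value 0.413). Ccl25 and Ccl27a had log2 differences of 0.22 and 0.23 with overlapping groups.

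Receptors for these ligands were low in the tumor lines. Of 15 receptor genes, 12 were under 1 FPKM in every library, and the CCR6 gene Ccr6 was listed at 0 throughout. The CXCR3 gene Cxcr3 was at most 0.287 FPKM and the CCR2 gene Ccr2 at most 0.149 FPKM. Besides Ackr3, Ccrl2, the gene for a receptor that binds the attractant chemerin, passed the filter, at 1.90 and 8.28 FPKM in JNK_WT lines and 6.62 and 7.69 FPKM in JNK_KO lines. Neither of the pair was called, and 0 had an unadjusted limma p-value under 0.05.

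Among 6 genes for proteases that cleave chemokines, 4 passed the filter, 0 were called by limma and 0 had an unadjusted p-value under 0.05. Adam10, which encodes a sheddase of CXCL16 and CX3CL1, was at 45.8 and 43.2 FPKM in JNK_WT lines and at 56.8 and 67.1 FPKM in JNK_KO lines (log2 difference 0.46, limma adjusted p-value 0.792). Adam17, Mmp2 and Mmp14 had log2 differences of -0.23, -0.26 and 0.30 with overlapping groups.

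Cytokine signals that are known to induce these chemokines were examined next. Of 19 genes for cytokines, their receptors and JAK kinases, 15 passed the filter and limma called 0. The unadjusted limma p-value was under 0.05 for 5, all of them higher in JNK_KO cells, beside 4.75% of all tested genes. Il6, one of these 5, passed the filter through the JNK_KO lines alone, which it could only do by being higher there. Ifng and Il17a were listed at 0 in all 4 libraries, and the interferon beta gene Ifnb1 reached at most 0.260 FPKM. Il6 was at 0 and 0.436 FPKM in JNK_WT lines and at 3.86 and 13.0 FPKM in JNK_KO lines, a difference of 2.78 on the log2 scale (SE 0.61, limma adjusted p-value 0.378). The receptor genes Il6st, Il1r1 and Ifnar2 had log2 differences of 1.89, 1.67 and 1.57 with limma adjusted p-values of 0.299, 0.763 and 0.349, and in each of them both JNK_KO lines lay above both JNK_WT lines.

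Of 15 transcription factor genes that act on chemokine promoters, all 15 passed the filter and limma called 0. A total of 6 had an unadjusted p-value under 0.05, each higher in JNK_KO cells, beside 4.75% of all tested genes. Irf7, which encodes an interferon regulatory factor, was at 6.99 and 2.29 FPKM in JNK_WT lines and at 108 and 72.9 FPKM in JNK_KO lines, a difference of 4.13 on the log2 scale (SE 0.52, limma adjusted p-value 0.186). Stat2 and Irf9, whose products are subunits of the factor that binds ISREs, had log2 differences of 1.70 and 1.64 with limma adjusted p-values of 0.421 and 0.444. The NF-kB subunit genes Relb and Nfkb2, named here after their values were seen, had log2 differences of 0.84 and 1.20. The other subunit genes differed less, with 0.36 for Rel, 0.23 for Nfkb1 and 0.16 for Rela, whose groups overlapped.

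**Figure D5:**
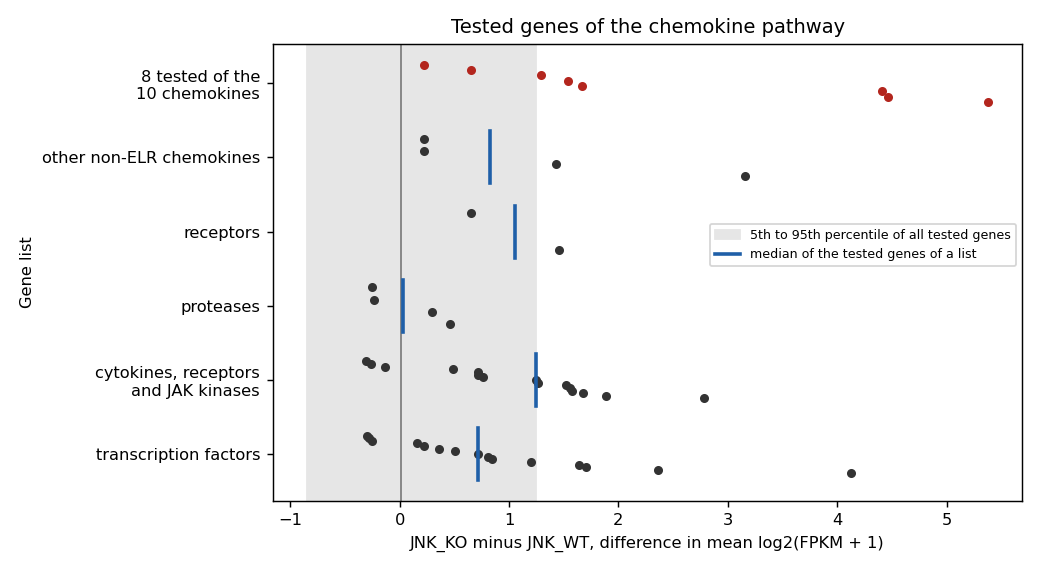
Difference in mean log2(FPKM + 1), JNK_KO minus JNK_WT, of the tested genes of each list (1 point per gene), with the median of each list except the 10 chemokines as a blue line. The grey band spans the 5th to the 95th percentile of all tested genes, from -0.85 to 1.25, and Ccl2, Cxcl10 and Ccl7 lie furthest to its right among the chemokines.

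Because leukocytes and fibroblasts make these chemokines, their markers were read in the same libraries. Of 12 leukocyte markers, 9 were under 1 FPKM in every library. The pan-leukocyte gene Ptprc was at most 0.0134 FPKM, the T cell gene Cd3e at most 0.0691 FPKM, and Tyrobp was listed at 0 throughout. The summed level of the leukocyte list was 34.2 and 237 FPKM in JNK_WT lines and 129 and 150 FPKM in JNK_KO lines, nearly all of it from Cd14 and Cd68. Cd14 was at 11.9 and 233 FPKM in JNK_WT lines and at 125 and 140 FPKM in JNK_KO lines, while the macrophage gene Cd68 was at 20.0 and 3.15 FPKM against 2.65 and 8.43 FPKM, so that the groups overlapped for each. All 6 endothelial markers were under 1 FPKM in every library, with sums of 0.191 to 0.519 FPKM in JNK_WT lines and 0.238 to 0.848 FPKM in JNK_KO lines. The 10 fibroblast markers summed to 14.5 and 7.10 FPKM in JNK_WT lines and to 140 and 217 FPKM in JNK_KO lines. Most of the sum in each JNK_KO line came from Dcn alone. Of the 10 markers, 5 passed the filter. Dcn, Pdgfra and Pdgfrb passed it through the JNK_KO lines alone, which they could only do by being higher there. Limma called 0 of the 5 tested markers, while 4 had an unadjusted p-value under 0.05 (Dcn, Col6a1, Pdgfra and Pdgfrb). All 4 were higher in JNK_KO cells, beside 4.75% of all tested genes. The remaining one, the collagen gene Col1a2, was at 10.3 and 0.374 FPKM in JNK_WT lines and at 0.698 and 2.56 FPKM in JNK_KO lines, a log2 difference of -0.68 with overlapping groups. Its partner Col1a1 was at most 0.527 FPKM and Lum at most 0.0084 FPKM in any library. The part of this list in the chemokine levels was not tested.

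The tested genes closest in pattern to each of Ccl2, Cxcl10 and Cxcl12 were found by the Euclidean distance of log2(FPKM + 1) values centred over the 4 libraries. For Ccl2 these were mmu-mir-6973a (distance 0.599), Enpp2 (1.24) and AL590625.1 (1.25), beside Pearson correlations of 0.995, 0.981 and 0.995 over 4 libraries. Enpp2, which encodes the lysophospholipase autotaxin, was at 2.35 and 5.18 FPKM in JNK_WT lines and at 212 and 96.5 FPKM in JNK_KO lines. For Cxcl10 the closest were Stra6 (1.29), H2-Q6 (1.30) and Gm25994 (1.33), of which H2-Q6 encodes an MHC class I molecule. For Cxcl12 they were Trf (0.475), Snord57 (0.962) and Gm25579 (1.01). Trf, the gene for transferrin, was at 124 and 6.22 FPKM in JNK_WT lines and at 286 and 36.3 FPKM in JNK_KO lines. The annotated exons of mmu-mir-6973a, Gm25994, Snord57 and Gm25579 hold 78, 101, 72 and 106 bases, fewer than the 200 bases assumed for a fragment. These 4 libraries share 2 genotypes, so many genes have similar patterns.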

How the data were processed

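Values were read from the deposited table of 4 libraries. The authors trimmed short single-end reads with Trimmomatic and aligned them to mm10 (GRCm38) with Bowtie2 and TopHat2 2.0.14. They deposited FPKM from Cufflinks 2.2.1 with replicates not pooled. The paper also describes sampling reads with seqtk, to compare these lines with other groups of cells. In all 4 libraries, the depth estimated from FPKM steps was above the average depth the paper gives for sampled reads. Whether these FPKM came from sampled reads was therefore not settled. If they did, the read numbers given here may be too high. The annotation used and any strand information were not given in the sources used here. Of 38741 rows, 27 symbols turned into dates and 1 gene without values were left out. Genes with FPKM of at least 1 in at least 2 libraries were tested on log2(FPKM + 1) with limma 3.58.1 (eBayes with trend, two-sided) in R 4.3.3, with Benjamini-Hochberg adjustment over 12998 genes. Log2 differences understate changes of low genes. No count model was run on these FPKM values.

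Reads per gene were estimated from the most common smallest step of FPKM times exon length less 200 bases, in GENCODE M21 coding genes with 1 transcript, which is approximate for genes with several transcripts. Gene positions are from GENCODE M21, and 2 list symbols were matched through RefSeq synonyms. The chemokines, the gene lists and the naming rule (the 10 chemokines, the targeted genes, at most 4 genes per list by size of difference and 3 per likeness search) were chosen with earlier results of these data known. Values of 1 listed gene are not reported here. Figures used matplotlib 3.10.9.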

Additional observations from a re-analysis of the deposited data

How the results depend on the processing

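No paired analysis was possible because each line came from a separate tumor and replicate numbers do not pair lines across genotypes. Limma called 0 genes as reported, but 10 and 14 at pseudocounts of 0.1 and 0.5, 14 when the spread was not modelled on expression level, and 25 at an adjusted p-value under 0.1. It also called 0 genes without the filter, with a minimum mean of 5 FPKM, under both scalings and in each of the 4 fits without 1 library. The cause was not tested. The median log2 difference of the 10 chemokines, 1.42, became 2.36 with a pseudocount of 0.1, which by construction widens differences of low genes, and ranged from 1.06 to 1.83 without 1 library. That of Ccl7 became 6.60, that of Cxcl9 2.64 and that of Cxcl11 2.70 at the same pseudocount. The number of chemokines with groups that did not overlap was 7 under upper quartile scaling and quantile normalization, and 8 to 9 without 1 library, where fewer values must be separated. Directions of the 10 chemokines held under every pseudocount and scaling tried. Quantile normalization was applied only to genes that passed the filter. Cxcl9 and Cxcl11 kept their unscaled values in it, so neither their direction nor their separation could change there. Over the fits without 1 library the log2 difference changed sign for some genes, with ranges of -0.66 to 1.97 for Ccl20, -0.25 to 3.33 for Cxcl12, -0.010 to 0.46 for Cxcl16, -0.18 to 0.62 for Ccl25, -0.19 to 1.49 for Ccrl2, -0.30 to 0.89 for Mmp14, -0.85 to 0.34 for Mmp2, -0.51 to 0.046 for Adam17, -0.28 to 3.84 for Trf, -0.36 to 3.87 for Snord57 and -0.52 to 4.30 for Gm25579.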
